A study of Mus musculus with 9 samples.

Results

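Cyclic AMP signalling machinery, as described here, is a set of 43 genes that encode the alpha subunits of G proteins, the adenylyl cyclases, the cyclic nucleotide phosphodiesterases, the subunits of protein kinase A (PKA), 1 PKA anchoring protein, the CREB factors with their coactivators, the cyclic AMP-activated exchange factors and the salt-inducible kinases. The genes were chosen by symbol and looked up among the 49315 genes of the count tables, in which all 43 were listed. RNA was sequenced from brown adipose tissue, the heat-producing fat depot, of male C57Bl/6J mice with diet-induced obesity. The cotadutide group (n = 5) received cotadutide, a peptide that activates both the GLP-1 and the glucagon receptor, and the vehicle group (n = 4) received vehicle, in both cases by daily subcutaneous injection for 28 days. All mice were 14 weeks old with 3 weeks of acclimation, ate a 60% high-fat diet up to a weight of about 50 g and were single housed, not at thermoneutrality, and no genetic change is given for either group. Each mouse gave 1 library of polyadenylated RNA from 30 mg of tissue.

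Cyclic AMP is made by adenylyl cyclases, which the stimulatory G protein activates and the inhibitory G proteins restrain, and it is broken down by phosphodiesterases. In brown adipocytes the sympathetic transmitter noradrenaline raises cyclic AMP through beta-adrenergic receptors, and PKA then switches on lipolysis, heat production and CREB-driven transcription. PKA is a holoenzyme whose regulatory subunits hold the catalytic subunits inactive until they bind cyclic AMP, and anchoring proteins place it at particular membranes.

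Library totals were 15.9 ± 3.58 M counts in cotadutide mice (SD, n = 5, range 10.8 to 19.5) and 20.8 ± 4.05 M counts in vehicle mice (SD, n = 4, range 16.1 to 25.1), and the totals overlapped (exact permutation test, two-sided, p = 0.127). Levels below are CPM, counts per M counts (M, mega) of the library total after TMM scaling. They compare a gene between mice, whereas levels of different genes are compared as TPM, which divides by the exonic length in the files. Means are given with the SD over the 5 cotadutide or 4 vehicle mice, and log2 fold changes with their SE. The tissue label was checked against 10 brown adipocyte markers, all of which had counts, with Ucp1 at means of 5886 CPM under cotadutide and 4781 CPM under vehicle. The summed CPM of the 10 brown adipocyte markers ranged from 11398 to 16624 in cotadutide mice and from 7579 to 11782 in vehicle mice, and 4 of the 10 rose. Markers are counted as risen or lower at an edgeR adjusted p under 0.05. By that threshold 9.31% of all tested genes were higher and 9.34% lower. Markers of other cells also moved. The 14 skeletal muscle markers summed to between 5353 and 19856 CPM in cotadutide mice and between 23050 and 49469 CPM in vehicle mice, with 8 of 14 lower. The 12 macrophage markers summed to between 215 and 438 CPM in cotadutide mice and between 347 and 572 CPM in vehicle mice, with 7 of 12 lower. None of these markers was at 0. The 8 shared adipocyte markers summed to between 18740 and 22260 CPM in cotadutide mice and between 14206 and 16074 CPM in vehicle mice, without overlap, and 3 of the 8 rose. A single library stood apart in its lymphocyte markers, since 8 T and B cell markers summed to 41.3 CPM in cotadutide mouse 3 and to between 2.86 and 4.63 CPM in the other 8 libraries. In bulk tissue, fewer cells of a type and less RNA per cell cannot be told apart.

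The start regions of several of these genes are shown because CREB, the transcription factor at the end of the pathway, binds the cyclic AMP response element, TGACGTCA, or its shorter core, TGACG. Promoter sequences of 300 bases, from 250 before to 50 after an annotated start, came from RefSeq (GRCm38.p6) and were found for 34 of the 43 genes, with 74 promoters in all. They are printed in lower case on the strand of the gene, with every TGACG or its reverse complement CGTCA in capitals. Each full element holds 2 overlapping cores, 1 on each strand.
Prkar2b, lower strand, chr12:32061228-32061527: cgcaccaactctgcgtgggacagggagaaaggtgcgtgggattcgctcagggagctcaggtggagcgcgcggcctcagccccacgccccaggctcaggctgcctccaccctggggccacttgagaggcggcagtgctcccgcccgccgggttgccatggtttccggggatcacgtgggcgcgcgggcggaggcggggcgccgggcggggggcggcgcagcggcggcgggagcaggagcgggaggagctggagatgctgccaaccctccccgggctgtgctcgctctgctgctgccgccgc
Akap1, lower strand, chr11:88864537-88864836: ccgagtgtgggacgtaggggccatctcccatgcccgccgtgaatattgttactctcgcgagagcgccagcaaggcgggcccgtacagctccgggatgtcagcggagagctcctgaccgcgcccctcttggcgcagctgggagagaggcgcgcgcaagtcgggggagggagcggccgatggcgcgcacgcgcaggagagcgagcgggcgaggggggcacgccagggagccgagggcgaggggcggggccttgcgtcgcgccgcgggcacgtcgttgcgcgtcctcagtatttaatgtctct
Pde4a, upper strand, chr9:21183851-21184150: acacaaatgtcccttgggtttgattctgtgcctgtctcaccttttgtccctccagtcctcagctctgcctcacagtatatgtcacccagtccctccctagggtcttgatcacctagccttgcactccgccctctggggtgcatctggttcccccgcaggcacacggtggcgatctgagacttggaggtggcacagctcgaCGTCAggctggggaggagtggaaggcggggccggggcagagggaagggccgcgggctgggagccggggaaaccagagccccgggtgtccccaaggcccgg
Adcy7, upper strand, chr8:88282742-88283041: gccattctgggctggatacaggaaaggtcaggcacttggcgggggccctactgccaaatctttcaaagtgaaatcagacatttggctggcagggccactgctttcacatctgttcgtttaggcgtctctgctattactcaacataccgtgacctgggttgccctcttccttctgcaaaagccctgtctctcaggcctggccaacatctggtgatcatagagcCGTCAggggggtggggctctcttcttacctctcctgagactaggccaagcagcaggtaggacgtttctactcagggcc
Prkar2a, upper strand, chr9:108691893-108692192: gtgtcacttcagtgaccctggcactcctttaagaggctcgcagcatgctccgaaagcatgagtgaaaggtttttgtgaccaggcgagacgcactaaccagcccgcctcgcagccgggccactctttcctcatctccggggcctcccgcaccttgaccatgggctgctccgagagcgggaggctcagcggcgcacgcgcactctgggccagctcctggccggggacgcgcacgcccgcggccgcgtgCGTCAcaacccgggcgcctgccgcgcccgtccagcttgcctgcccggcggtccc
Prkar1a, upper strand, chr11:109650699-109650998: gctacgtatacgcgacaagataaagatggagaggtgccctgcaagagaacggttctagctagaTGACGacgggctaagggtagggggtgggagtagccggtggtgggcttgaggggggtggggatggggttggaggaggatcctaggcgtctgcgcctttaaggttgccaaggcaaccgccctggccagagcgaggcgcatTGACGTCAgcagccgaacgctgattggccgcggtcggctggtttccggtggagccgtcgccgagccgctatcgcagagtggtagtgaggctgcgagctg
Prkar2b and Akap1, the most abundant PKA regulatory subunit and its mitochondrial anchor, had no core in these windows. Pde4a had a core 50 bases upstream of the start shown, Adcy7 had one 28 bases upstream and Prkar2a had one 4 bases upstream. Pde4a and Adcy7 have other annotated starts, and the windows of those held no core. Of the 8 called genes with a promoter in the table, Pde4a, Adcy7 and Prkar2a were the 3 with a core in any window. Among the 34 genes with a promoter in the table, 1 had a full element, Prkar1a, 49 bases upstream of the start shown, and it held a further core 187 bases upstream. Cores were present in promoters of 18 of the 34 matched genes, against 23.0% of the 27025 genes in the table. A gene counted if any of its promoters held a core, and the 34 genes had more promoters per gene than the whole table. These counts by gene are therefore not directly comparable. Counted by promoter, 22 of 74 (29.7%) held a core, against 20.8% of all 32851 promoters. Some windows of the same gene overlap, as for Gnas and Prkar1a, so a core can be counted more than once. Full elements were in 2.03% of all genes with a promoter. A match in these windows describes the letters and not the binding of a factor.

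The comparison of cotadutide with vehicle asked which parts of this pathway changed at the level of mRNA. Of the 43 genes, 41 had enough counts to be tested, and 6 rose and 4 fell at an edgeR adjusted p under 0.05, against 9.31% of all tested genes that rose and 9.34% that fell. The risers were the mitochondrial PKA anchor Akap1, the cyclase Adcy3, the phosphodiesterases Pde3a, Pde4a and Pde4d, and the PKA regulatory subunit Prkar2b. The fallers were the PKA regulatory subunit Prkar2a, the cyclases Adcy2 and Adcy7, and the phosphodiesterase Pde7a. Gene positions given below are those in the count tables (mm10). The 10 called genes were 24.4% of those tested, and 18.7% of all 14747 tested genes were called, so this share lies near the background. In 8 of the 41 (19.5%) the groups did not overlap, 5 with all cotadutide mice above and 3 with all below, against 15.8% of all tested genes, 8.06% above and 7.79% below. The median log2 fold change of the 41 was 0.11, and that of all tested genes was 0.00. All 10 called genes kept their direction in each of 18 alternative fits, 9 of which left out 1 mouse. Of those 9 fits, Akap1 passed in 8, Pde3a and Prkar2a in 7, and Pde4a, Pde7a and Adcy2 in 5. Adcy3, Pde4d and Adcy7 passed in 3 and Prkar2b in 2. The number of the set called depended on single mice, as did the share of all tested genes called, given in brackets. The number was 12 (19.7%), 3 (5.55%), 7 (9.35%), 6 (14.8%) and 9 (16.4%) without cotadutide mouse 1, 2, 3, 4 and 5. It was 1 (0.938%), 0 (0.992%), 3 (4.95%) and 12 (24.9%) without vehicle mouse 1, 2, 3 and 4. Of the 7 without cotadutide mouse 3, 3 rose and 4 fell. Without vehicle mouse 2, 12 of the set had an unadjusted p under 0.05 in edgeR.

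**Figure D1:**
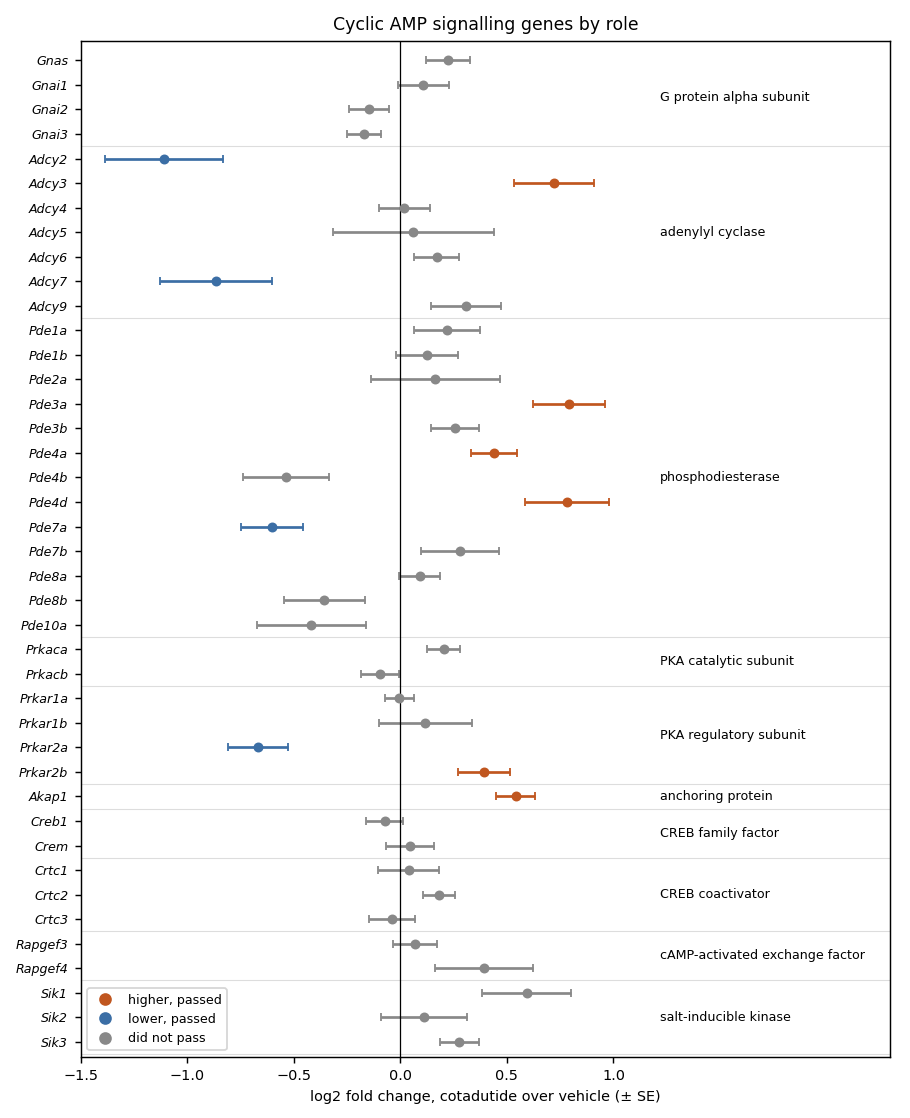
Log2 fold change of cotadutide over vehicle (x axis, points with SE bars from edgeR) for the 41 tested genes, grouped by role down the page. Orange marks the 6 genes that rose, blue the 4 that fell and grey the 31 that did not pass, whose values lay between -0.54 and 0.59.

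**Figure D2:**
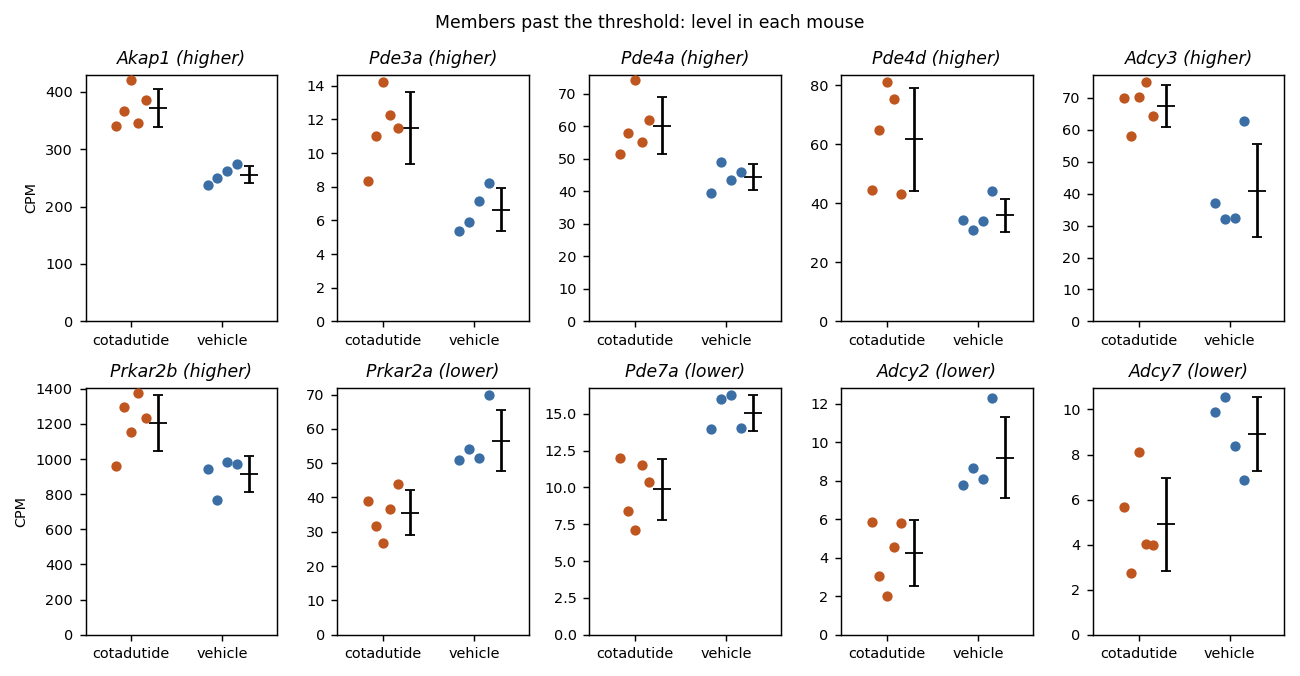
Level in CPM of each called gene in each of the 5 cotadutide mice (orange, left) and 4 vehicle mice (blue, right), with the mean and SD as bars beside the points, on axes that start at 0. The groups are separate for Akap1, Pde3a, Pde4a, Prkar2a, Pde7a and Adcy2 and overlap for Pde4d, Adcy3, Prkar2b and Adcy7.

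None of the 4 G protein alpha subunits passed the test. Gnas, which encodes the stimulatory alpha subunit, measured 1121, 1276, 1438, 1258 and 1223 CPM in the cotadutide mice, against 1208, 1116, 947 and 1059 CPM in the vehicle mice. Cotadutide mouse 3 was the highest and vehicle mouse 3 the lowest, and the groups overlapped (log2 fold change 0.22 ± 0.10 SE, adjusted p = 0.143 in edgeR). The Gnas gene model in the files spans 11186 exonic bases of an imprinted locus with several transcripts, so its counts can cover more than the stimulatory subunit.

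Gnai1, Gnai2 and Gnai3 encode the inhibitory alpha subunits. Gnai1 measured 54.1, 41.3, 39.9, 49.2 and 49.8 CPM in the cotadutide mice, against 46.4, 36.4, 51.5 and 39.7 CPM in the vehicle mice. Gnai2 measured 114, 112, 118, 105 and 119 CPM in the cotadutide mice, against 141, 135, 124 and 104 CPM in the vehicle mice. Gnai3 measured 28.9, 28.8, 28.4, 33.4 and 28.4 CPM in the cotadutide mice, against 35.9, 34.1, 32.5 and 30.6 CPM in the vehicle mice. Groups overlapped in all 3 genes, and the log2 fold changes were 0.11 for Gnai1 (SE 0.12, edgeR adjusted p = 0.552), -0.15 for Gnai2 (SE 0.09, edgeR adjusted p = 0.275) and -0.17 for Gnai3 (SE 0.08, edgeR adjusted p = 0.151). On the TPM scale Gnai2 made up 55.6% ± 2.98 of the inhibitory subunits in cotadutide mice and 57.9% ± 3.05 in vehicle mice. The TPM ratio of Gnas to Gnai2 was 3.76 ± 0.35 in cotadutide mice and 2.93 ± 0.37 in vehicle mice, with overlap between the groups.

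Among the adenylyl cyclases, which make cyclic AMP, 1 of the 7 tested isoforms rose, 2 fell and 4 did not pass. Adcy3, a calmodulin-regulated isoform found in fat (chr12:4133103-4213525, upper strand), measured 69.9, 58.0, 70.1, 74.8 and 64.3 CPM in the cotadutide mice, against 36.9, 32.0, 32.2 and 62.7 CPM in the vehicle mice. Vehicle mouse 4 lay within the range of the cotadutide mice, while the other 3 vehicle mice were at or below 36.9 CPM. Adcy3 was 1.65-fold higher under cotadutide (log2 fold change 0.72 ± 0.19 SE, adjusted p = 0.0287 in edgeR), and without vehicle mouse 4 its log2 fold change was 1.00. It passed in 3 of the 9 fits that left out 1 mouse. Adcy3 shares 1380 of its 6246 exonic bases with Cenpo on the opposite strand, and the counts of Cenpo were 9.69% of those of Adcy3.

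Adcy2 and Adcy7, isoforms that G protein beta-gamma subunits can stimulate, went the other way and were both scarce. Adcy2 (chr13:68620043-68999541, lower strand) measured 5.86, 3.08, 1.99, 4.57 and 5.81 CPM in the cotadutide mice, against 7.78, 8.68, 8.07 and 12.3 CPM in the vehicle mice. Every cotadutide mouse was below every vehicle mouse, with cotadutide mouse 3 lowest and vehicle mouse 4 highest, and Adcy2 was 2.16-fold lower (log2 fold change -1.11 ± 0.28 SE, adjusted p = 0.0254 in edgeR). Adcy7, which is abundant in immune cells (chr8:88272403-88329962, upper strand), measured 5.66, 2.76, 8.11, 4.02 and 4.00 CPM in the cotadutide mice, against 9.88, 10.6, 8.37 and 6.86 CPM in the vehicle mice. Cotadutide mouse 3, the library with the high lymphocyte markers, overlapped the vehicle mice, and Adcy7 was 1.82-fold lower (log2 fold change -0.86 ± 0.26 SE, adjusted p = 0.0441 in edgeR). Without that mouse its log2 fold change was -1.14 and it passed. This was 1 of 3 such passes among the 9 fits that left out 1 mouse.

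The remaining isoforms did not pass. Adcy6, a calcium-inhibited isoform, measured 109, 108, 138, 129 and 121 CPM in the cotadutide mice, against 104, 101, 128 and 96.5 CPM in the vehicle mice, with overlap and a log2 fold change of 0.17 (SE 0.11, edgeR adjusted p = 0.270). Adcy5, its closest relative, measured 29.4, 5.64, 8.89, 12.6 and 17.9 CPM in the cotadutide mice, against 14.5, 13.3, 17.1 and 12.4 CPM in the vehicle mice. Its coefficient of variation was 62.4% in cotadutide mice and 14.1% in vehicle mice. Cotadutide mice 1 and 5 were above every vehicle mouse, and cotadutide mice 2 and 3 were below every vehicle mouse (log2 fold change 0.06 ± 0.38 SE, adjusted p = 0.925 in edgeR). Adcy4 measured 19.5, 18.9, 20.3, 21.97 and 17.5 CPM in the cotadutide mice, against 17.3, 24.4, 19.4 and 16.5 CPM in the vehicle mice, with overlap and an edgeR adjusted p of 0.927. Adcy9, an isoform with little response to forskolin, stayed under 12 CPM in all mice (log2 fold change 0.31 ± 0.16 SE, adjusted p = 0.200 in edgeR). Adcy1 and Adcy8, the calcium-stimulated isoforms of neurons, were too scarce to test, at 28 and 3 counts over all cotadutide mice against 34 and 7 counts over all vehicle mice.

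By TPM, Adcy6 was the main cyclase, at 47.6% ± 3.34 of the cyclase transcripts in cotadutide mice and 48.1% ± 4.69 in vehicle mice. Adcy3 held 25.5% ± 0.68 in cotadutide mice and 17.7% ± 6.10 in vehicle mice, and vehicle mouse 4 reached 26.5%. Adcy2 held 2.40% ± 0.94 in cotadutide mice, where the highest mouse was at 3.33%, and 5.90% ± 1.28 in vehicle mice, where the lowest was at 4.83%. Summed over the 9 isoforms, cyclase TPM was 77.1 ± 10.3 in cotadutide mice and 76.3 ± 6.74 in vehicle mice. TPM was not TMM-scaled, so these sums do not compare amounts between the groups. The mean of Adcy6, for example, was 36.7 TPM in cotadutide mice and 36.9 TPM in vehicle mice, but 121 and 108 CPM.

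The 13 phosphodiesterases end the signal, and 3 rose, 1 fell and 9 did not pass. Pde3a, a cyclic GMP-inhibited enzyme of heart and vessels (chr6:141249269-141507448, upper strand), measured 8.33, 11.03, 14.2, 12.3 and 11.5 CPM in the cotadutide mice, against 5.37, 5.88, 7.13 and 8.21 CPM in the vehicle mice. The lowest cotadutide mouse, mouse 1, was just above the highest vehicle mouse, mouse 4, and Pde3a was 1.73-fold higher (log2 fold change 0.79 ± 0.17 SE, adjusted p = 0.0178 in edgeR). Its exons share 741 bases with Gm28523 on the opposite strand, whose counts were 8.66% of those of Pde3a.

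Pde4a and Pde4d belong to the cyclic AMP-specific enzymes that rolipram inhibits and that limit beta-adrenergic signals. Pde4a (chr9:21165714-21213248, upper strand) measured 51.6, 58.1, 74.2, 55.3 and 62.1 CPM in the cotadutide mice, against 39.5, 48.9, 43.4 and 46.0 CPM in the vehicle mice. All cotadutide mice were above all vehicle mice, with cotadutide mouse 3 apart at the top, and Pde4a was 1.35-fold higher (log2 fold change 0.44 ± 0.11 SE, adjusted p = 0.0238 in edgeR). Pde4d (chr13:108449948-109953461, upper strand) measured 44.4, 64.7, 81.0, 75.1 and 43.1 CPM in the cotadutide mice, against 34.3, 31.1, 34.1 and 44.1 CPM in the vehicle mice. Cotadutide mice 2, 3 and 4 were well above every vehicle mouse, cotadutide mice 1 and 5 were level with vehicle mouse 4, and Pde4d was 1.72-fold higher (log2 fold change 0.78 ± 0.20 SE, adjusted p = 0.0260 in edgeR). Pde4b, the third member of that subfamily in the set, had a negative log2 fold change and did not pass. It measured 18.3, 13.1, 16.1, 8.42 and 16.6 CPM in the cotadutide mice, against 21.9, 23.1, 22.7 and 16.1 CPM in the vehicle mice, with cotadutide mouse 4 lowest of all (log2 fold change -0.54 ± 0.20 SE, adjusted p = 0.0814 in edgeR). The TPM ratio of Pde4d to Pde4b was 4.21 ± 2.31 in cotadutide mice and 1.57 ± 0.56 in vehicle mice, and vehicle mouse 4, at 2.41, lay above cotadutide mice 1 and 5.

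Pde7a, another cyclic AMP-specific enzyme (chr3:19223108-19311322, lower strand), fell. It measured 12.0, 8.40, 7.11, 11.5 and 10.4 CPM in the cotadutide mice, against 14.0, 15.998, 16.3 and 14.0 CPM in the vehicle mice. Every cotadutide mouse was below every vehicle mouse, and Pde7a was 1.52-fold lower (log2 fold change -0.60 ± 0.15 SE, adjusted p = 0.0226 in edgeR). Its relative Pde7b measured 19.0, 15.1, 17.8, 24.99 and 15.7 CPM in the cotadutide mice, against 17.5, 10.4, 15.7 and 17.7 CPM in the vehicle mice, with overlap and an edgeR adjusted p of 0.292.

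Pde3b, the enzyme through which insulin restrains lipolysis in fat cells, was the main phosphodiesterase by TPM, with 42.3% ± 2.51 of the family in cotadutide mice and 41.4% ± 2.24 in vehicle mice. It measured 196, 229, 220.0, 274 and 228 CPM in the cotadutide mice, against 179.8, 168, 226 and 195 CPM in the vehicle mice. The groups overlapped and Pde3b did not pass (log2 fold change 0.26 ± 0.11 SE, adjusted p = 0.131 in edgeR). Pde8a, a high-affinity cyclic AMP phosphodiesterase, came second by TPM, with 17.0% ± 1.03 in cotadutide mice and 18.8% ± 1.35 in vehicle mice. It measured 34.5, 38.2, 43.3, 44.9 and 44.4 CPM in the cotadutide mice, against 40.9, 36.6, 41.5 and 35.0 CPM in the vehicle mice, with overlap (log2 fold change 0.09 ± 0.10 SE, adjusted p = 0.524 in edgeR). The calcium-activated Pde1a measured 17.7, 17.4, 18.0, 22.8 and 18.4 CPM in the cotadutide mice, against 17.4, 11.3, 20.8 and 15.5 CPM in the vehicle mice (log2 fold change 0.22 ± 0.16 SE, adjusted p = 0.336 in edgeR), and its groups overlapped.

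The 4 scarcer enzymes, Pde1b, Pde2a, Pde8b and Pde10a, had means under 7 CPM in both groups and edgeR adjusted p between 0.203 and 0.733. The summed TPM of the family was 108.5 ± 14.8 in cotadutide mice and 104.4 ± 11.9 in vehicle mice. Without TMM scaling, these sums do not compare amounts between the groups. Within the summed TPM of each mouse the share of Pde4d was 8.54% ± 1.84 in cotadutide mice and 5.91% ± 0.99 in vehicle mice. The share of Pde4a was 13.3% ± 1.66 in cotadutide mice and 11.5% ± 1.61 in vehicle mice. Both shares overlapped between the groups.

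**Figure D3:**
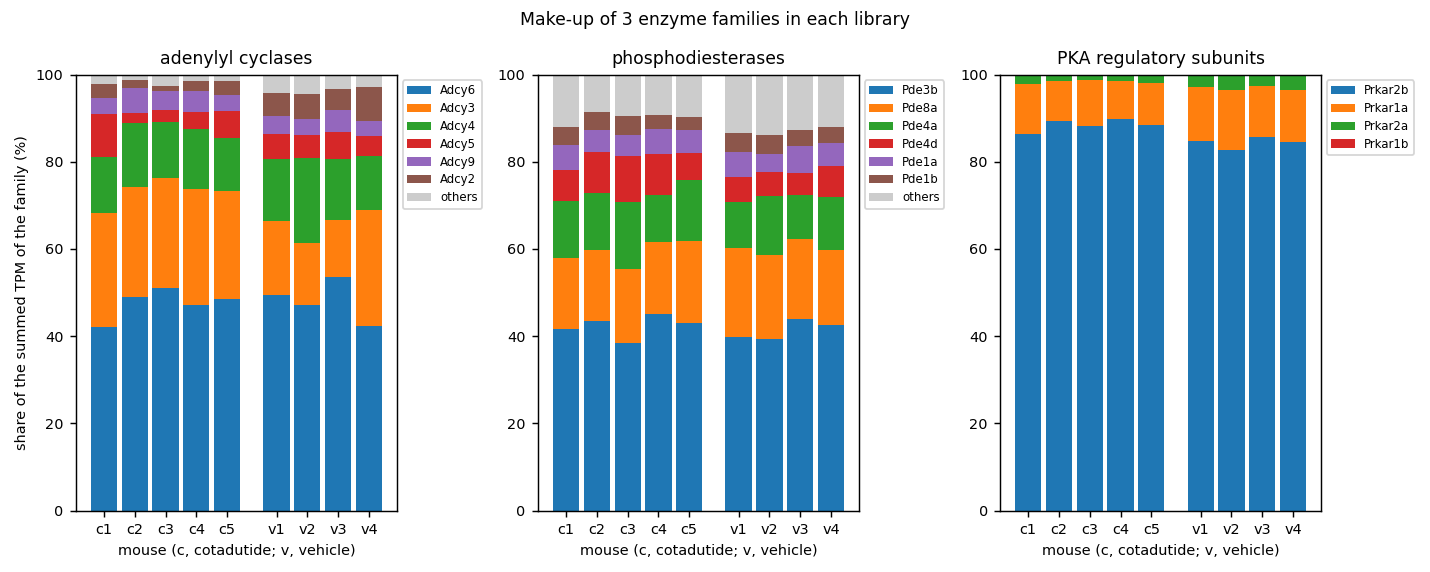
Share in percent of the summed TPM of each family (y axis) taken by each isoform, in each cotadutide mouse (c1 to c5) and each vehicle mouse (v1 to v4), as stacked bars from 0 to 100. Adcy6, Pde3b and Prkar2b are the largest parts in every mouse, and the Prkar2b part lies between 86.4% and 89.8% in cotadutide mice and between 82.8% and 85.6% in vehicle mice.

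Both type II regulatory subunits of PKA were called, in opposite directions. Prkar2b (chr12:31958476-32061296, lower strand) encodes the regulatory subunit that predominates in fat. It measured 958, 1298, 1153, 1375 and 1233 CPM in the cotadutide mice, against 942, 764, 984 and 974 CPM in the vehicle mice. Cotadutide mice 2 to 5 were above every vehicle mouse, while cotadutide mouse 1 lay among them. Prkar2b was 1.31-fold higher (log2 fold change 0.39 ± 0.12 SE, adjusted p = 0.0446 in edgeR), and it passed in 2 of the 9 fits that left out 1 mouse. Prkar2a (chr9:108689314-108750436, upper strand) encodes the widely expressed type II subunit and measured 38.9, 31.8, 26.7, 36.7 and 44.1 CPM in the cotadutide mice, against 50.9, 54.2, 51.4 and 69.8 CPM in the vehicle mice. All cotadutide mice were below all vehicle mice, with cotadutide mouse 3 lowest and vehicle mouse 4 highest. Prkar2a was 1.59-fold lower (log2 fold change -0.67 ± 0.14 SE, adjusted p = 0.0178 in edgeR), and it passed in 7 of those 9 fits.

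Neither type I subunit passed. Prkar1a, the ubiquitous type I subunit and the gene with the full response element, measured 149.7, 158, 161, 158 and 161 CPM in the cotadutide mice, against 162, 149, 159 and 161 CPM in the vehicle mice. The groups overlapped, and it was the steadiest gene of the set above 5 CPM, with coefficients of variation of 2.85% in cotadutide mice and 3.80% in vehicle mice (log2 fold change -0.01 ± 0.07 SE, adjusted p = 0.965 in edgeR). Prkar1b, the neuronal type I subunit, stayed under 3 CPM in every mouse (log2 fold change 0.12 ± 0.22 SE, adjusted p = 0.736 in edgeR).

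As TPM shares of the regulatory subunits, Prkar2b took 88.4% ± 1.31 in cotadutide mice and 84.4% ± 1.20 in vehicle mice, without overlap. Prkar1a took 9.89% ± 1.06 in cotadutide mice and 12.4% ± 0.90 in vehicle mice. Prkar2a took 1.52% ± 0.37 in cotadutide mice and 3.00% ± 0.48 in vehicle mice. The TPM ratio of Prkar2b to Prkar2a was 43.01, 71.3, 75.5, 65.5 and 48.9 in the cotadutide mice, against 32.4, 24.6, 33.4 and 24.4 in the vehicle mice, so it was higher in 5 of 5 cotadutide mice than in any vehicle mouse. This ratio rests on the same counts as the opposite calls of Prkar2b and Prkar2a and is not a separate result.

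Neither catalytic subunit passed. Prkaca, the main catalytic subunit with 96.0% ± 0.48 of catalytic TPM in cotadutide mice and 95.1% ± 0.38 in vehicle mice, measured 241, 259, 240.4, 249 and 272 CPM in the cotadutide mice, against 206, 223, 218 and 229 CPM in the vehicle mice. The groups did not overlap, but Prkaca did not pass (log2 fold change 0.20 ± 0.08 SE, adjusted p = 0.0821 in edgeR). Prkacb measured 34.3, 33.8, 36.1, 44.5 and 38.1 CPM in the cotadutide mice, against 40.3, 38.4, 42.6 and 38.5 CPM in the vehicle mice, with overlap (log2 fold change -0.10 ± 0.09 SE, adjusted p = 0.476 in edgeR). The TPM ratio of all regulatory to all catalytic subunits was 3.52 ± 0.36 in cotadutide mice and 3.21 ± 0.36 in vehicle mice, a difference smaller than the spread within either group.

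Akap1 (chr11:88830792-88864586, lower strand) encodes a protein that tethers PKA, through its regulatory subunits, to the outer mitochondrial membrane. It measured 339.8, 367, 421, 345 and 386 CPM in the cotadutide mice, against 238, 249, 262 and 273 CPM in the vehicle mice. Every cotadutide mouse was above every vehicle mouse, and the gap between the groups was wider than the spread within the vehicle mice. Akap1 was 1.45-fold higher (log2 fold change 0.54 ± 0.09 SE, adjusted p = 0.0140 in edgeR), the smallest adjusted p of the set, and it passed in 8 of the 9 fits that left out 1 mouse, missing without vehicle mouse 2 at an edgeR adjusted p of 0.0503.

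None of the 10 genes for CREB factors, coactivators, salt-inducible kinases and the exchange factors that cyclic AMP activates alongside PKA passed. Creb1, the factor that PKA phosphorylates, measured 17.1, 20.8, 19.6, 20.0 and 17.7 CPM in the cotadutide mice, against 19.2, 20.7, 21.0 and 19.4 CPM in the vehicle mice (log2 fold change -0.07 ± 0.09 SE, adjusted p = 0.560 in edgeR). Crem, a relative of CREB1 with activating and repressing forms, measured 14.2, 14.6, 11.9, 11.8 and 11.6 CPM in the cotadutide mice, against 12.7, 13.7, 13.0 and 10.4 CPM in the vehicle mice (log2 fold change 0.04 ± 0.11 SE, adjusted p = 0.814 in edgeR). Both genes overlapped between the groups. The CRTC coactivators enter the nucleus when they are dephosphorylated. Crtc2 measured 32.3, 34.8, 36.3, 35.4 and 33.9 CPM in the cotadutide mice, against 28.9, 33.5, 30.0 and 29.3 CPM in the vehicle mice, with 1 vehicle mouse among the cotadutide mice (log2 fold change 0.18 ± 0.07 SE, adjusted p = 0.102 in edgeR). Crtc3 measured 14.7, 16.5, 13.4, 11.8 and 14.5 CPM in the cotadutide mice, against 15.4, 14.4, 15.4 and 13.1 CPM in the vehicle mice, with overlap (log2 fold change -0.04 ± 0.11 SE, adjusted p = 0.818 in edgeR), and Crtc1 stayed under 8 CPM in every mouse (edgeR adjusted p = 0.876).

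Rapgef3, which encodes the cyclic AMP-activated Rap exchange factor EPAC1, measured 23.6, 21.2, 29.1, 24.9 and 22.9 CPM in the cotadutide mice, against 20.6, 24.6, 22.6 and 25.3 CPM in the vehicle mice, with overlap (log2 fold change 0.07 ± 0.10 SE, adjusted p = 0.673 in edgeR). Rapgef4, for EPAC2, stayed under 5 CPM in every mouse (edgeR adjusted p = 0.244).

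The salt-inducible kinases phosphorylate CRTC coactivators and are themselves inhibited by PKA. Sik1, which CREB induces in many tissues, measured 55.8, 92.1, 103, 83.5 and 55.3 CPM in the cotadutide mice, against 55.3, 40.8, 65.5 and 45.4 CPM in the vehicle mice. Cotadutide mice 2, 3 and 4 were above every vehicle mouse and the other two were within their range, and Sik1 did not pass (log2 fold change 0.59 ± 0.21 SE, adjusted p = 0.0691 in edgeR). Sik3 measured 35.0, 34.0, 35.0, 43.2 and 34.6 CPM in the cotadutide mice, against 29.7, 27.1, 32.3 and 31.0 CPM in the vehicle mice, without overlap and just short of the threshold (log2 fold change 0.28 ± 0.09 SE, adjusted p = 0.0531 in edgeR). Sik2 measured 49.4, 47.6, 50.6, 81.3 and 50.5 CPM in the cotadutide mice, against 53.2, 43.2, 71.8 and 39.2 CPM in the vehicle mice, with cotadutide mouse 4 and vehicle mouse 3 well above the rest (log2 fold change 0.11 ± 0.20 SE, adjusted p = 0.730 in edgeR). Sik2 shares 1429 exonic bases with Ppp2r1b on the opposite strand, whose counts were 129% of its own.

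The skeletal muscle markers were also summarised as a score for each library. This score, the mean log2 CPM of the 14 markers, was 10.0, 8.83, 8.04, 9.34 and 9.96 in the cotadutide mice, against 10.3, 10.6, 10.4 and 11.3 in the vehicle mice, and did not overlap between groups. Adcy2 and Prkar2a were lowest in cotadutide mouse 3, the library with the lowest score, and highest in vehicle mouse 4, the one with the highest. Pde7a was also lowest in cotadutide mouse 3, but at 14.0 CPM in vehicle mouse 4 it was below vehicle mice 2 and 3. Of the genes that rose, Akap1, Pde3a, Pde4a and Pde4d were highest in cotadutide mouse 3, and Adcy3 and Prkar2b in cotadutide mouse 4. Among the vehicle mice, Akap1, Pde3a, Pde4d and Adcy3 were highest in mouse 4, the library with the highest score. With the score as a covariate in the edgeR fit, no gene of any kind passed, and 2189 genes had an unadjusted p under 0.05. In that fit the log2 fold change was -0.10 for Adcy2 (SE 0.17), -0.17 for Prkar2a (SE 0.11), -0.25 for Pde7a (SE 0.19), 0.26 for Pde4a (SE 0.16) and 0.36 for Pde4d (SE 0.28). It was 0.46 for Akap1 (SE 0.14), 0.61 for Pde3a (SE 0.26), 1.01 for Adcy3 (SE 0.28), 0.34 for Prkar2b (SE 0.19) and -1.31 for Adcy7 (SE 0.37). Because the score and the treatment separate the mice in the same way, they cannot be told apart in these libraries. The summed brown adipocyte markers overlapped between the groups and the summed shared adipocyte markers were higher in every cotadutide mouse, as given above, and their part in the rises was not tested.

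With the macrophage score as the covariate, an alternative added after the data were seen, again no gene passed and 1164 had an unadjusted p under 0.05. The macrophage score overlapped between the groups, with cotadutide mouse 1 above vehicle mouse 3. In that fit the log2 fold change was 0.33 for Pde3a (SE 0.20), 0.27 for Pde4d (SE 0.24), 0.18 for Pde4a (SE 0.14), 0.20 for Prkar2b (SE 0.18), -0.45 for Adcy2 (SE 0.32), -0.38 for Prkar2a (SE 0.19) and -0.29 for Pde7a (SE 0.19), all closer to 0 than without the covariate. Akap1 also moved closer to 0, from 0.54 to 0.37 (SE 0.13). The value was farther from 0 for Adcy3, at 0.78 (SE 0.30), and for Adcy7, at -0.92 (SE 0.42). The 10 called genes kept their signs.

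**Figure D4:**
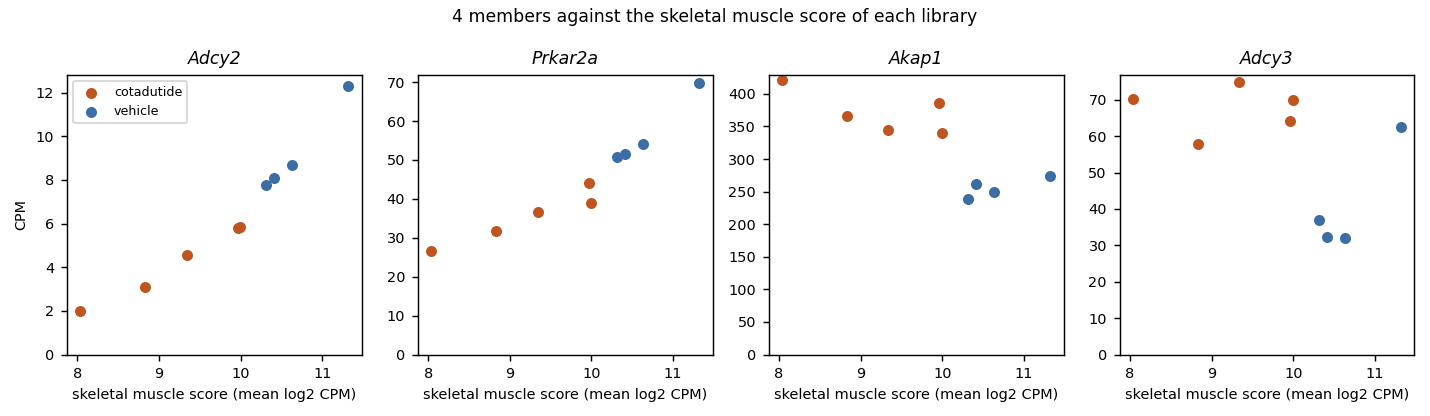
Level in CPM (y axes from 0) of Adcy2, Prkar2a, Akap1 and Adcy3 against the skeletal muscle score, in mean log2 CPM, of the same library (x axis), with cotadutide mice in orange and vehicle mice in blue. Adcy2 and Prkar2a are lowest at the score of 8.04 and highest at 11.3. Akap1 is highest at 8.04 and lowest at 10.3. The groups are separate for Adcy2, Prkar2a and Akap1.

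**Figure D5:**
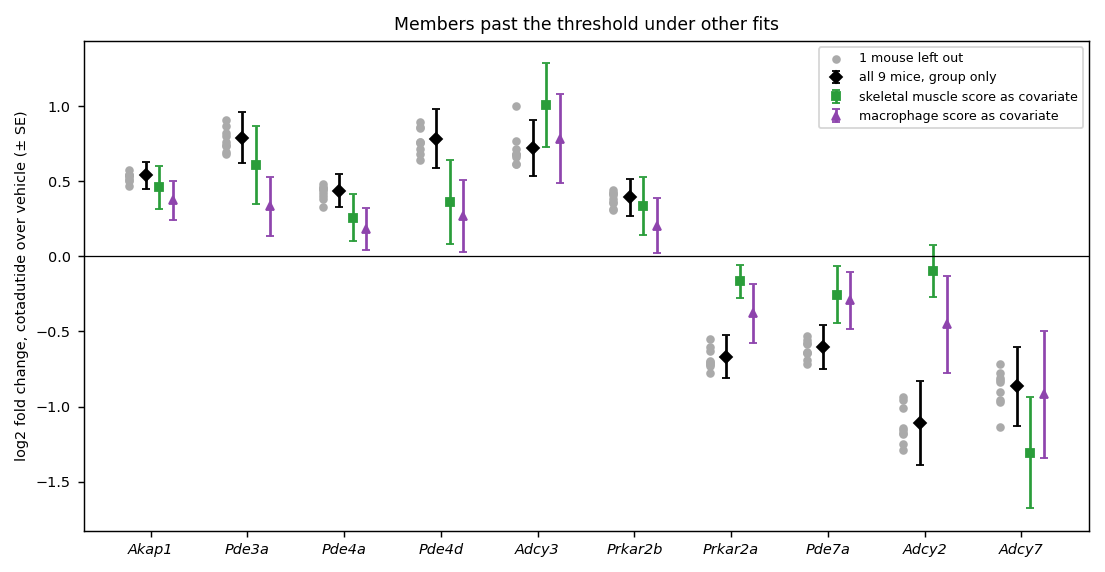
Log2 fold change of cotadutide over vehicle (y axis) of each called gene in the fits that left out 1 mouse (grey), in the fit with all 9 mice and the group only (black) and in the fits with the muscle score (green) or macrophage score (purple) as covariate, with SE bars on the last 3. Every point stays on its own side of 0, and that of Adcy2 moves to -0.10 with the muscle score.

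Of 126 other genes of the pathway, taken from lists by role, 110 were tested, and 15 rose and 12 fell (24.5%, against 18.7% of all tested genes), with a median log2 fold change of -0.03. Among the 12 tested receptors that couple to the stimulatory G protein, 2 rose and 1 fell. Mc2r, the corticotropin receptor, averaged 4.57 ± 0.533 CPM in cotadutide mice and 2.76 ± 0.682 CPM in vehicle mice (log2 fold change 0.74 ± 0.18 SE, adjusted p = 0.0231 in edgeR). Sctr, the secretin receptor, averaged 12.8 ± 2.20 CPM in cotadutide mice and 9.01 ± 0.860 CPM in vehicle mice (log2 fold change 0.51 ± 0.13 SE, adjusted p = 0.0277 in edgeR). Ptgir, the prostacyclin receptor, was lower and averaged 1.80 ± 0.387 CPM in cotadutide mice and 3.29 ± 1.27 CPM in vehicle mice (log2 fold change -0.88 ± 0.28 SE, adjusted p = 0.0476 in edgeR). Of the receptors that cotadutide itself targets, Glp1r had 0 counts in every library, a limit of 0.0386 CPM for the cotadutide group and 0.0351 CPM for the vehicle group (3 counts over the group's total). Gcgr had 17 counts over the cotadutide mice, or 0.219 CPM with an exact 95% Poisson interval of 0.127 to 0.350, and 7 counts over the vehicle mice, or 0.0819 CPM with an interval of 0.0329 to 0.169. These limits and intervals cover counting error only.

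Among 10 tested receptors that couple to the inhibitory G proteins, 2 rose and 2 fell. Hcar1, the lactate receptor that restrains lipolysis, measured 44.1, 25.2, 15.9, 16.4 and 15.5 CPM in the cotadutide mice, against 5.76, 5.80, 9.78 and 10.2 CPM in the vehicle mice. All cotadutide mice were above all vehicle mice, and Hcar1 was 3.02-fold higher (log2 fold change 1.59 ± 0.35 SE, adjusted p = 0.0187 in edgeR). Hcar2, the receptor for niacin and the ketone body 3-hydroxybutyrate, averaged 8.21 ± 4.25 CPM in cotadutide mice and 3.39 ± 1.08 CPM in vehicle mice (log2 fold change 1.30 ± 0.35 SE, adjusted p = 0.0315 in edgeR). Ptger3, a prostaglandin E receptor, was 1.72-fold lower (log2 fold change -0.78 ± 0.21 SE, adjusted p = 0.0306 in edgeR), and the succinate receptor Sucnr1 was 1.81-fold lower (log2 fold change -0.86 ± 0.27 SE, adjusted p = 0.0453 in edgeR).

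Of 6 receptor desensitisation genes the kinase Grk3 rose (log2 fold change 0.59 ± 0.13 SE, adjusted p = 0.0184 in edgeR), at 70.8 ± 13.2 CPM in cotadutide mice and 47.1 ± 1.603 CPM in vehicle mice. Gnb2, a beta subunit, rose among 14 other G protein subunits (log2 fold change 0.29 ± 0.09 SE, adjusted p = 0.0472 in edgeR). None of the other 7 tested phosphodiesterases passed, the most abundant being Pde6d at 21.98 ± 2.37 CPM in cotadutide mice and 21.8 ± 1.98 CPM in vehicle mice (log2 fold change 0.01 ± 0.10 SE, adjusted p = 0.945 in edgeR).

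Pkia encodes the alpha form of the protein kinase inhibitor, which blocks the catalytic subunit. It measured 61.9, 23.2, 17.1, 43.9 and 61.5 CPM in the cotadutide mice, against 89.6, 111, 102 and 125 CPM in the vehicle mice. Every cotadutide mouse was below every vehicle mouse, with mouse 3 lowest, and Pkia was 2.57-fold lower (log2 fold change -1.36 ± 0.33 SE, adjusted p = 0.0241 in edgeR). It was 1 of the 2 tested PKA inhibitors. Among 13 other anchoring proteins, Akap7 rose (log2 fold change 0.37 ± 0.09 SE, adjusted p = 0.0245 in edgeR), and Cmya5, Akap6 and Akap12 fell. Cmya5, which anchors PKA in striated muscle, was 2.49-fold lower (log2 fold change -1.32 ± 0.35 SE, adjusted p = 0.0309 in edgeR), Akap6, the muscle anchor, was 2.36-fold lower (log2 fold change -1.24 ± 0.34 SE, adjusted p = 0.0341 in edgeR) and Akap12 was 1.29-fold lower (log2 fold change -0.37 ± 0.11 SE, adjusted p = 0.0436 in edgeR). Bves, a cyclic AMP-binding protein of muscle, was the 1 of 9 other effectors and exporters that fell (log2 fold change -1.22 ± 0.33 SE, adjusted p = 0.0316 in edgeR). With the muscle score as covariate these log2 fold changes were -0.25 for Pkia, -0.16 for Cmya5, -0.28 for Akap6, -0.10 for Bves, -0.49 for Akap12 and 0.39 for Akap7, and the last 2 were farther from 0 than without it.

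Of 12 other CREB and ATF factors and coactivators, 3 fell and none rose. Atf4, the stress-response factor, averaged 107 ± 8.78 CPM in cotadutide mice and 145 ± 8.90 CPM in vehicle mice (log2 fold change -0.44 ± 0.08 SE, adjusted p = 0.0156 in edgeR). Creb3l2, a membrane-bound factor, and Creb5 were 1.44-fold and 1.85-fold lower, with edgeR adjusted p of 0.0190 and 0.0343.

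Among 18 tested genes known as CREB targets, 6 rose and 1 fell (38.9%, against 18.7% of all tested genes). Log2 fold changes were positive for 12 and negative for 6 of the 18, and ranged from -1.21 to 1.34. Rgs2, which limits signalling by G proteins, measured 114, 146, 205, 127 and 144 CPM in the cotadutide mice, against 42.97, 61.5, 46.3 and 81.9 CPM in the vehicle mice. All cotadutide mice were above all vehicle mice, Rgs2 was 2.53-fold higher (log2 fold change 1.34 ± 0.22 SE, adjusted p = 0.0140 in edgeR), and it passed in all 9 fits that left out 1 mouse. Id1 averaged 89.8 ± 13.3 CPM in cotadutide mice and 54.8 ± 8.46 CPM in vehicle mice (log2 fold change 0.71 ± 0.13 SE, adjusted p = 0.0147 in edgeR). Pck1, for the enzyme of glyceroneogenesis, averaged 3925 ± 572 CPM in cotadutide mice and 2610.5 ± 458 CPM in vehicle mice (log2 fold change 0.59 ± 0.14 SE, adjusted p = 0.0232 in edgeR). Dusp1, a phosphatase of MAP kinases, was lower and averaged 106 ± 14.0 CPM in cotadutide mice and 176 ± 46.2 CPM in vehicle mice (log2 fold change -0.73 ± 0.16 SE, adjusted p = 0.0184 in edgeR).

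Of 8 PKA substrates or lipolysis genes of the fat cell, 2 rose and none fell. Pnpla2 encodes the lipase that starts triglyceride breakdown and averaged 2966 ± 271 CPM in cotadutide mice and 2124 ± 176 CPM in vehicle mice (log2 fold change 0.48 ± 0.10 SE, adjusted p = 0.0165 in edgeR). Abhd5 encodes the coactivator of that lipase and averaged 127 ± 24.7 CPM in cotadutide mice and 80.2 ± 15.1 CPM in vehicle mice (log2 fold change 0.67 ± 0.15 SE, adjusted p = 0.0208 in edgeR).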

How the data were processed

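Gene counts per library were deposited by the authors as raw counts of reads per Ensembl gene, 1 table for each of 9 mice, and per the submitters' processing notes the tools were bcl2fastq 2.17, Trimmomatic 0.36, STAR 2.5.2b and featureCounts of Subread 1.5.2, with the build mm10. No source used here gives the strand setting or the annotation release, so reads of antisense neighbours could not be told apart. Of 49315 identifiers, 48970 matched a symbol. The labels gave the groups and mouse numbers. Mice were separate animals, and every pair of libraries in a group differed by more than counting noise, with a chi-square per degree of freedom of at least 12.18.

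Genes kept by edgeR's filterByExpr were tested with edgeR 4.0.16 in R 4.3.3 (TMM factors, robust glmQLFit, glmQLFTest) on all 9 libraries with the group as the only term, and p was adjusted over all genes tested by Benjamini and Hochberg, with a threshold of 0.05. SE is that of the log2 fold change. Alternatives used DESeq2 1.42.0, DESeq2 size factors in edgeR, limma-voom (limma 3.58.1), other filters, the mouse number as a block, marker scores as covariates and fits without each mouse. TPM used the exonic length in the files, without TMM scaling. Of the pathway, all 43 genes are accounted for: those called, or averaging 10 CPM or more in either group, by their value in every library, the others by range. From each list at most 4 called genes of smallest adjusted p are named, or the most abundant where none was called. The 43 genes and the lists were chosen with earlier results of these data known.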

Additional observations from a re-analysis of the deposited data

Results flagged for a closer look

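In 8 of 82 groups of values of single genes examined, 1 mouse lay far from the others of its group by Dixon's criterion at 95%, which chance alone would meet in about 1 in 20 groups. In 4 of them it was cotadutide mouse 4. That mouse had 33.4 CPM of Gnai3, where the other cotadutide mice had 28.4 to 28.9 CPM. It had 22.8 CPM of Pde1a, against 17.4 to 18.4 CPM in the other cotadutide mice. Its Sik2 level was 81.3 CPM, against 47.6 to 50.6 CPM in the others. Its Sik3 level was 43.2 CPM, against 34.0 to 35.0 CPM in the others. Cotadutide mouse 1 had 149.7 CPM of Prkar1a, against 158 to 161 CPM in the other cotadutide mice. Vehicle mouse 4 had 62.7 CPM of Adcy3, while the other 3 vehicle mice had 32.0 to 36.9 CPM. The same mouse had 5.40 CPM of Pde1b, while the other 3 had 6.30 to 6.42 CPM. Vehicle mouse 3 had 10.6 CPM of Adcy9, and the other 3 had 6.59 to 7.19 CPM.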

How the results depend on the processing

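All 10 called genes of the set kept their direction in the 18 alternatives, and 10 of 10 still passed with DESeq2, with DESeq2 size factors, with limma-voom and without mitochondrially encoded genes. Of the set, 6 genes rose and 4 fell. Without a low-count filter, which put 28583 genes into the adjustment, 3 rose and 3 fell. In that fit 7.57% of all tested genes were called, against 18.7% with filterByExpr. With the skeletal muscle score or the macrophage score as a covariate, 0 rose and 0 fell, and likewise 0 rose and 0 fell among the other genes of the pathway, where 15 and 12 had done so. Without a filter 9 of those other genes rose. With 1 mouse left out, between 0 and 7 genes of the set rose and between 0 and 6 fell, and between 1 and 18 of the other genes rose and between 0 and 16 fell. The share of all tested genes called in those fits lay between 0.938% and 24.9%. The cause of these differences was not tested. At this depth Adcy1 and Adcy8 had too few counts to test.

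Same-numbered mice had correlations of deviations of 0.135, -0.04, 0.0229 and -0.0107. Those of differently numbered mice lay between -0.191 and 0.203, a range that held all of these, so the numbers gave no sign of pairing. With the number as a replicate block, on mice 1 to 4 of each group, 4 genes of the set rose and 3 fell, and 8 of the other genes rose and 9 fell. In that fit 9.28% of all tested genes were called, against 18.7% in the fit without the block.

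Directions turned only for genes that had not passed, and the cause was not tested. With the muscle score, log2 fold changes were -0.084 for Adcy4, -0.012 for Adcy6, -0.28 for Pde1b, -0.17 for Pde2a, -0.030 for Pde8a, -0.21 for Prkar1b, -0.014 for Crem, -0.015 for Rapgef3, -0.098 for Sik1 and -0.019 for Sik2. With the macrophage score they were -0.017 for Adcy4, -0.024 for Adcy6, -0.015 for Adcy9, -0.12 for Pde1b, -0.038 for Pde8a, -0.0064 for Prkar1b, -0.056 for Rapgef3, -0.028 for Sik1 and -0.0035 for Sik2. Without a filter they were -0.027 for Adcy4, -0.00089 for Crem, -0.0072 for Crtc1 and -0.032 for Pde6d. With a filter of 1 CPM in 4 libraries they were -0.011 for Adcy4 and -0.016 for Pde6d. Without mitochondrially encoded genes they were -0.0069 for Adcy4 and -0.013 for Pde6d. With the block they were -0.27 for Adcy5, -0.011 for Crtc1 and -0.069 for Pde6d. With limma-voom the value was -0.14 for Adcy5. With 1 mouse left out the range was -0.050 to 0.14 for Adcy4, -0.39 to 0.27 for Adcy5, -0.031 to 0.087 for Crem, -0.051 to 0.13 for Crtc1, -0.022 to 0.33 for Pde2a, -0.070 to 0.079 for Pde6d, -0.038 to 0.0083 for Prkar1a, -0.028 to 0.11 for Rapgef3 and -0.090 to 0.30 for Sik2.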
